A study of Mus musculus with 8 samples.

Results

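The genes described here are those whose products carry, receive or block the extracellular Wnt signal. They were taken from the count table by gene symbol: the 19 Wnt ligands, the ligand secretion factors Porcn and Wls, 10 Frizzled receptors, the co-receptors Lrp5 and Lrp6, the receptors Ror1, Ror2 and Ryk, 4 R-spondins (Rspo), 3 LGR receptors, 4 Dickkopf antagonists (Dkk), 2 Kremen receptors, 4 secreted Frizzled-related proteins (Sfrp) and Wif1. These 54 genes are 54 of the 36255 rows of the count table. Poly(A) RNA was sequenced from mouse embryonic stem (ES) cells and from embryoid bodies at day 2 (EBd2), which are aggregates of ES cells that begin to differentiate. At each stage the libraries are labelled either homozygous for a floxed Skp1a allele (fl/fl) or knockout (KO) for Skp1a, so that 8 libraries fall into 4 groups of 2: fl/fl ES cells, KO ES cells, fl/fl EBd2 and KO EBd2. Skp1a encodes the adaptor that joins F-box proteins to the cullin of SCF ubiquitin ligases. All groups were grown in standard medium, with no other allele or agent named. How the allele was deleted, from which clone and in which ES cell line is not stated in the labels. Libraries carry lot numbers (1, 2 or 12). The labels do not say that lots are separate cultures, so each p-value measures spread among the libraries at hand, and that spread may be technical. The titles set the groups, because the tissue field follows genotype in place of stage.

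Wnt proteins are lipid-modified by Porcn, carried to the cell surface by Wls and bound by Frizzled receptors together with Lrp5 or Lrp6. In the canonical branch this stops the destruction of beta-catenin, which otherwise is marked for degradation through the F-box protein beta-TrCP of an SCF ligase and which, when stable, acts with TCF/LEF factors on target genes. Sfrp and Wif1 proteins bind the ligands, Dickkopf proteins block the co-receptors, and R-spondins acting through Lgr4, Lgr5 or Lgr6 keep Frizzled receptors at the surface. In ES cells the canonical branch helps to maintain self-renewal, and in the early embryo it is needed for the primitive streak.

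Total counts were 21545868 to 23343471 in the ES cell libraries and 7858452 to 10055667 in EBd2. Levels are CPM, counts scaled to the depth of each library, with trimmed mean of M values (TMM) factors. Skp1a itself stood at 420.2 and 430.3 CPM in fl/fl and 369 and 361 CPM in KO ES cells. At day 2 it had 401 and 389 CPM in fl/fl and 286 and 289.6 CPM in KO. It was lower in KO at both stages (log2 difference -0.22 ± 0.03, adjusted p = 0.00073 and -0.46 ± 0.04, adjusted p = 5.13e-07), but most of its counts remained, and counts per gene do not show which exons were read. The label KO is therefore used as given. In fl/fl the labelled stages matched their markers. The 8 naive ES cell genes summed to 1825 to 1856 CPM in fl/fl ES cells and 703 to 762 in fl/fl EBd2. The 4 formative epiblast genes summed to 199.8 to 204 and 1668 to 1786. In KO the naive genes summed to 1527 to 1547 CPM in ES cells and 883 to 937 in EBd2. The formative genes summed in KO to 171 to 178 CPM in ES cells and 306 to 321 in EBd2. In KO EBd2, 6 primitive streak genes summed to 155 to 159 CPM against 19.1 to 20.5 in fl/fl EBd2. The sums of 12 primitive and visceral endoderm genes were 1092 to 1100 in KO EBd2 against 472 to 515 in fl/fl EBd2. A list of 15 fibroblast feeder genes summed to 108 to 109 CPM in fl/fl EBd2 and 407 to 433 in KO EBd2, and to 1152 to 1206 and 1357 to 1465 in ES cells, with none of its genes at 0 in any group. Fewer cells of a type and less RNA per cell cannot be told apart in such bulk libraries. The mitochondrial share of counts was 1.73% to 3.24% and higher in KO at each stage.

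More of these genes were called between genotypes at day 2 than in ES cells, and the same held for all genes tested (62.2% against 23.7%). In KO EBd2 14 of 15 tested ligands, 2 of which were tested only because of their level there, their carrier Wls and the Dickkopf antagonists stood above fl/fl EBd2, whereas 5 Frizzled receptors, Fzd7 among them, the co-receptors, Lgr4 and 3 of the 4 Sfrp antagonists stood below it. A gene is called where edgeR's quasi-likelihood test gave a Benjamini-Hochberg adjusted p below 0.05 over the 16542 genes tested in a fit of all 8 libraries, and differences are log2 values with standard errors. At day 2, 39 of the 50 tested members were called, 26 higher and 13 lower in KO, where 62.2% of all genes tested were called, 30.7% higher and 31.5% lower. At least a 2-fold change accompanied the call in 21 of the 50 members higher and 9 lower, against 14.9% and 6.17% of all genes. The 21 include Dkk4, Wnt10a and Wnt8b, which were tested only because of their level in KO EBd2. The members' median log2 difference was 0.80, and that of all genes 0.00. Wnt1, Wnt2, Wnt9b and Wnt16 had too few counts to be tested. Another 4 members (Dkk4, Wif1, Wnt10a and Wnt8b) passed the filter on low counts only through KO EBd2; without them 23 of 46 were higher and 13 lower, with a median of 0.65. Among the ligands 12 of 13 were then higher and none lower. In ES cells 15 of the 50 were called, 12 higher and 3 lower in KO, where 23.7% of all genes were called, 10.9% higher and 12.8% lower. DESeq2 called 9 members there, and 2810 of the 13380 genes to which it gave an adjusted p. In ES cells the member count also depended on which library was left out. The members' median there was 0.30, against 0.00 for all genes.

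Of the 39 calls at day 2, 33 were made whichever library was left out. With library sizes alone in place of TMM scaling, the median of all genes at day 2 moved to 0.23. In that fit 7075 genes were called higher and 3345 lower, compared with 5072 and 5217, and the members' split was 28 higher and 12 lower. The genotype difference was not the same at the 2 stages for 30 of the 50 members by the interaction of genotype and stage, in which 48% of all genes were called. Its value was positive in 17 members (22.4% of all genes), or 16 of 46 without those 4, and negative in 13 (25.7%).

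**Figure D1:**
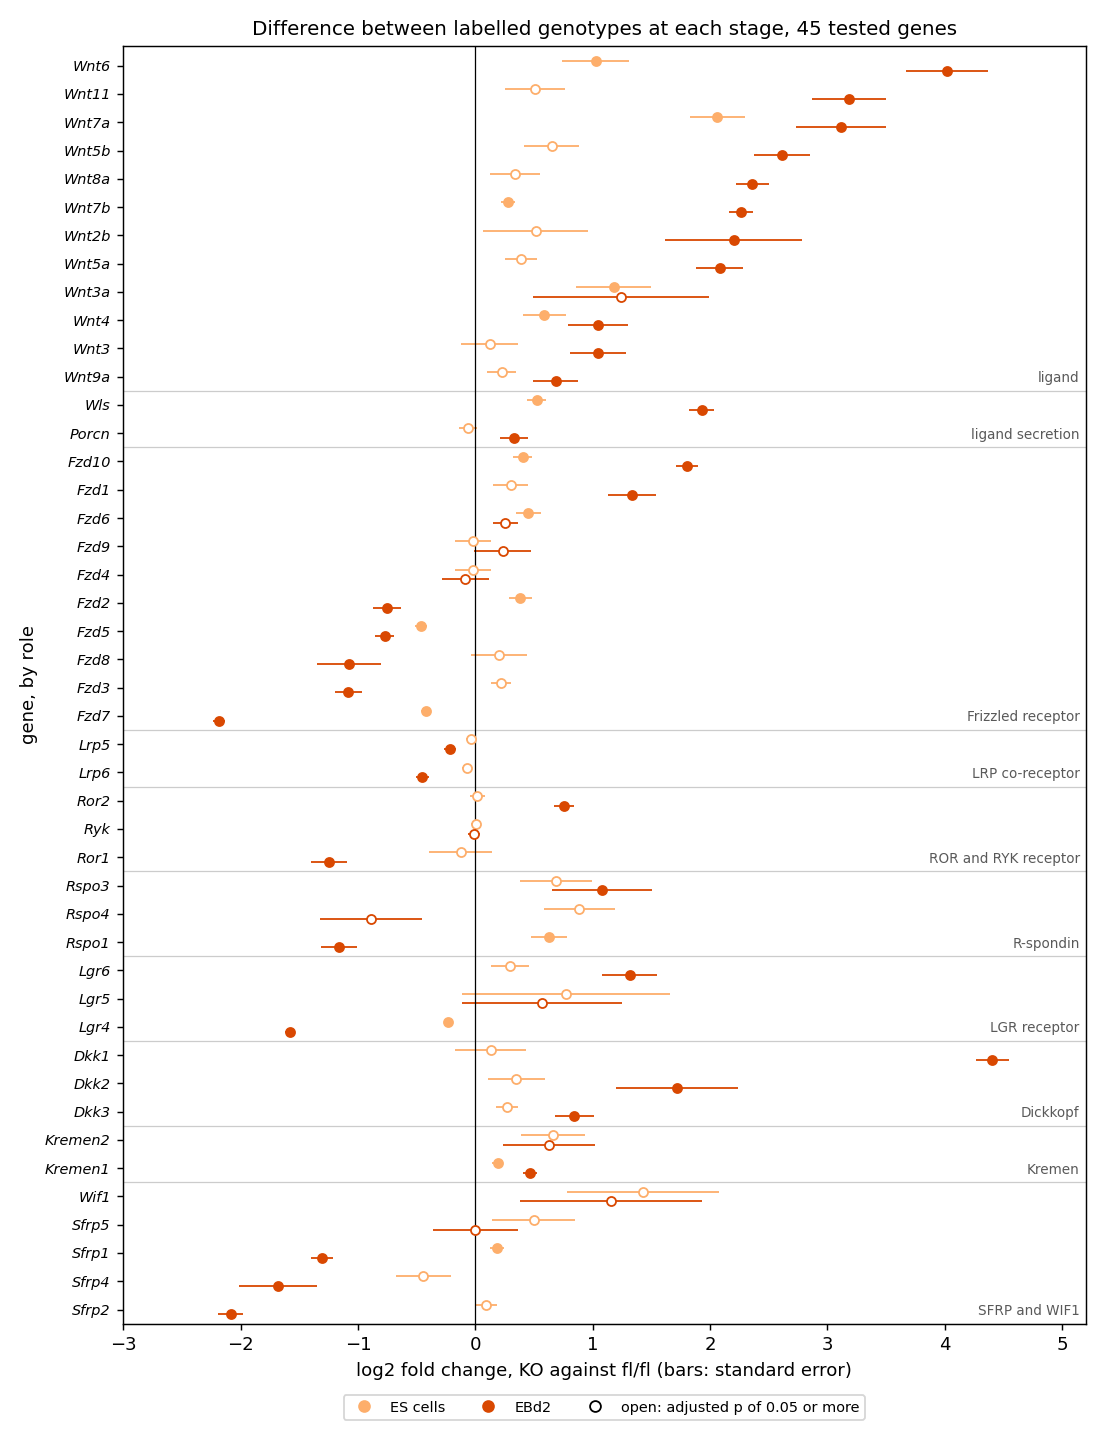
Log2 difference of KO against fl/fl (x axis; bars, standard error) for the 45 tested genes with over 3 counts in each group, by role (y axis), in ES cells (light) and EBd2 (dark), with open points where the adjusted p was 0.05 or more. At day 2 the plotted ligands lie right of 0, from 0.68 for Wnt9a to 4.02 for Wnt6, while Fzd7 (-2.19), Lgr4 (-1.58) and Sfrp2 (-2.08) lie left of it.

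Summed over each class, the difference at day 2 went in opposite directions for the ligands and for the Frizzled, LGR and LRP receptors. The 19 ligands summed to 61.8 and 62.5 CPM in fl/fl and 83.6 and 82.7 in KO ES cells, and to 33.3 and 32.2 at day 2 in fl/fl and 144 and 145 at day 2 in KO. The KO EBd2 sum was the highest of the 4 groups and the fl/fl EBd2 sum the lowest, with no overlap between groups. The 10 Frizzled receptors summed to 332 and 320.2 CPM in fl/fl and 265 and 276 in KO ES cells, and to 422 and 453 at day 2 in fl/fl and 200.2 and 196 at day 2 in KO, so that here fl/fl EBd2 was highest and KO EBd2 lowest. The same order held for the 3 LGR receptors, which summed to 115 and 115 CPM in fl/fl and 97.7 and 101 in KO ES cells, and to 223 and 224 at day 2 in fl/fl and 80.4 and 79.7 at day 2 in KO, a sum carried by Lgr4. The day 2 difference of the Frizzled sum was carried largely by Fzd7, with means of 293 CPM in fl/fl EBd2 and 64.3 in KO EBd2. Fzd1 and Fzd10 were higher in KO EBd2. The 4 Dickkopf genes summed to 20.4 and 19.6 CPM in fl/fl and 22.6 and 26.0 in KO ES cells, and to 9.58 and 8.31 at day 2 in fl/fl and 78.9 and 74.2 at day 2 in KO. The Sfrp genes with Wif1 summed to 79.6 and 77.3 CPM in fl/fl and 88.8 and 87.6 in KO ES cells, and to 85.0 and 90.3 at day 2 in fl/fl and 35.8 and 29.6 at day 2 in KO. Thus the secreted antagonists split, with the Dickkopf sum highest and the Sfrp sum lowest in KO EBd2. The Dickkopf sum there was carried by Dkk1 (mean 60.9 CPM), whereas Dkk2 and Dkk3 had their highest means in KO ES cells (3.36 and 20.1 CPM). Lrp5 and Lrp6 summed to 246 and 236 CPM in fl/fl and 228 and 237 in KO ES cells, and to 244 and 252 at day 2 in fl/fl and 201 and 194 at day 2 in KO. All 54 genes summed to 959 CPM at the least and 1245 at the most in any library. Ror1, Ror2 and Ryk summed to 113 and 111 CPM in fl/fl and 112 and 113 in KO ES cells, and to 115 and 111 at day 2 in fl/fl and 121 and 118 at day 2 in KO, a slightly higher day 2 sum in KO. Of these receptors Ror2 was called higher in KO EBd2, Ror1 lower, and Ryk was not called. The 2 Kremen receptors summed to 50.1 and 48.4 CPM in fl/fl and 56.5 and 58.2 in KO ES cells, and to 37.5 and 35.3 at day 2 in fl/fl and 51.8 and 49.3 at day 2 in KO, also with the higher day 2 sum in KO. These sums are descriptions and were not tested.

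**Figure D2:**
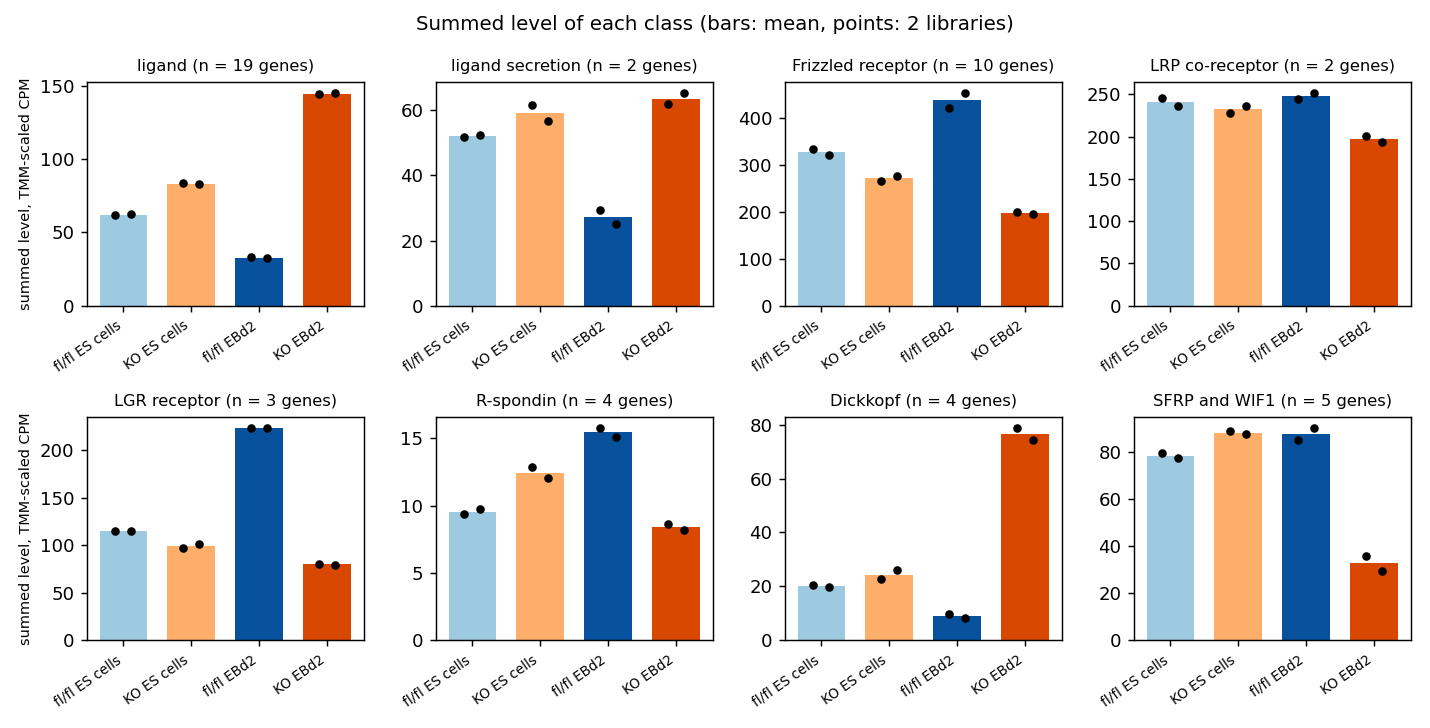
Summed level of 8 classes in TMM-scaled CPM (y axis, from 0) in the 4 groups (x axis); bars are the mean and points the 2 libraries. Ligand and Dickkopf sums are highest in KO EBd2, at 144 to 145 and 74.2 to 78.9 CPM, while Frizzled, LGR and Sfrp with Wif1 sums are lowest there.

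Wnt7b, a ligand of epithelia and the nervous system, was the ligand with the highest level per kilobase of exon in ES cells. It was measured at 34.8 and 35.7 CPM in fl/fl and 42.4 and 43.2 CPM in KO ES cells. In EBd2 Wnt7b had 10.1 and 8.08 CPM in fl/fl and 44.6 and 42.2 CPM in KO. The fl/fl EBd2 libraries stood apart below the other 6. In fl/fl it fell from ES cells to day 2 (log2 difference -1.96 ± 0.10, adjusted p = 1.92e-08), whereas in KO the difference between stages was 0.02 ± 0.06 (adjusted p = 0.811). At day 2 KO exceeded fl/fl by 2.26 ± 0.10 (adjusted p = 6.65e-09) on the log2 scale. Per kilobase it reached 7.19 CPM per kb in fl/fl and 8.74 in KO ES cells, where Wnt9a followed with 2.04 and 2.39. Exons of Wnt7b overlap a gene on the other strand.

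Wnt8a, a ligand of the posterior embryo around gastrulation, was the ligand with the highest level per kilobase at day 2 in both genotypes. Its levels were 1.62 and 1.47 CPM in fl/fl and 1.69 and 2.22 CPM in KO ES cells. In EBd2 Wnt8a had 5.80 and 7.04 CPM in fl/fl and 31.3 and 35.1 CPM in KO. The ES cell groups lay close together (KO difference 0.34 ± 0.21, adjusted p = 0.297), while the EBd2 groups lay far apart. Wnt8a rose with stage in both genotypes, by 2.06 ± 0.20 (adjusted p = 5.35e-06) in fl/fl and 4.08 ± 0.14 (adjusted p = 1.08e-09) in KO on the log2 scale, and the KO libraries at day 2 were 2.36 ± 0.14 (adjusted p = 6.21e-08) above fl/fl. Per kilobase it reached 3.68 CPM per kb in fl/fl EBd2 and 19.0 in KO EBd2, where Wnt7b followed with 8.86. Its share of the summed ligand level per kilobase was 35.5% in fl/fl EBd2 and 39.6% in KO EBd2. Wnt3, which is needed for the primitive streak to form, rose in both genotypes as well and was measured at 1.39 and 2.05 CPM in fl/fl and 1.65 and 2.09 CPM in KO ES cells. In EBd2 Wnt3 had 3.78 and 3.35 CPM in fl/fl and 6.96 and 7.69 CPM in KO. The day 2 difference between genotypes for Wnt3 was 1.04 ± 0.24 (adjusted p = 0.00245).

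Wnt5a, Wnt5b and Wnt11, which mostly act through branches that do not use beta-catenin, were all higher in KO EBd2. Wnt5a stood at 5.39 and 5.18 CPM in fl/fl and 7.18 and 6.67 CPM in KO ES cells. In EBd2 Wnt5a had 2.97 and 2.31 CPM in fl/fl and 12.4 and 9.84 CPM in KO. Its fl/fl level fell with stage (log2 difference -1.01 ± 0.21, adjusted p = 0.00139) and its KO level rose (0.68 ± 0.14, adjusted p = 0.00113). For Wnt5b the levels were 1.44 and 1.12 CPM in fl/fl and 1.92 and 2.13 CPM in KO ES cells. In EBd2 Wnt5b had 1.89 and 1.73 CPM in fl/fl and 9.80 and 12.3 CPM in KO, and both KO EBd2 libraries lay above the other 6. Wnt11 showed the same picture, with 1.48 and 1.81 CPM in fl/fl and 2.85 and 1.81 CPM in KO ES cells. In EBd2 Wnt11 had 0.810 and 1.04 CPM in fl/fl and 8.33 and 8.76 CPM in KO. At day 2 the log2 differences between genotypes were 2.08 ± 0.20 (adjusted p = 3.00e-06) for Wnt5a, 2.61 ± 0.24 (adjusted p = 1.97e-06) for Wnt5b and 3.19 ± 0.32 (adjusted p = 4.27e-06) for Wnt11. For Wnt5b and Wnt11 the stage difference was called in KO (2.45 ± 0.19, adjusted p = 6.09e-07 and 1.87 ± 0.22, adjusted p = 1.86e-05) and not in fl/fl (0.49 ± 0.30, adjusted p = 0.206 and -0.81 ± 0.38, adjusted p = 0.0874), and the interaction of genotype and stage was called for both (1.96 ± 0.35, adjusted p = 0.000709 and 2.68 ± 0.43, adjusted p = 0.000328). Exons of Wnt5a and Wnt11 overlap a gene on the other strand, and reads of the pair cannot be told apart where counting ignores strand.

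The ligand with the largest fitted difference among those with over 3 counts in each group was Wnt6, a ligand of surface ectoderm and other epithelia. It was found at 0.674 and 1.03 CPM in fl/fl ES cells, 1.78 and 1.67 in KO ES cells, 0.675 and 0.346 at day 2 in fl/fl and 7.84 and 8.59 at day 2 in KO, with both KO EBd2 libraries above all others. KO exceeded fl/fl by 4.02 ± 0.35 (adjusted p = 1.34e-06) at day 2. Its neighbour Wnt10a lies 6.19 kb away on chromosome 1 (chr1:74771892-74785322 and chr1:74791516-74804179, both on the plus strand, GENCODE M21 on GRCm38). Wnt10a had 1 and 1 counts in the fl/fl EBd2 libraries and 19 and 12 in KO EBd2, a CPM ratio of 11.7 with an exact 95% counting interval of 2.96 to 100. Its levels were 0.0898 and 0.440 CPM in fl/fl and 0.580 and 0.417 CPM in KO ES cells. In EBd2 Wnt10a had 0.135 and 0.115 CPM in fl/fl and 1.86 and 1.07 CPM in KO. Of the other ligand pairs that lie close together, Wnt3a and Wnt9a are 16.2 kb apart and Wnt9b and Wnt3 24.3 kb apart on chromosome 11, and Wnt10b and Wnt1 are 11.7 kb apart on chromosome 15.

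Wnt7a, a ligand of limb, brain and uterus, was the ligand with the largest called difference in ES cells. It stood at 0.943 and 1.12 CPM in fl/fl ES cells, 4.91 and 3.75 in KO ES cells, 0.405 and 0.462 at day 2 in fl/fl and 4.12 and 3.58 at day 2 in KO, and KO libraries exceeded fl/fl libraries at both stages without overlap. The log2 differences were 2.06 ± 0.23 (adjusted p = 0.000173) in ES cells and 3.12 ± 0.38 (adjusted p = 2.43e-05) at day 2, with an interaction that was not called (1.05 ± 0.50, adjusted p = 0.115). Wnt4, which acts in kidney and gonad, was found at 2.83 and 2.39 CPM in fl/fl and 3.61 and 4.26 CPM in KO ES cells. In EBd2 Wnt4 had 1.75 and 2.19 CPM in fl/fl and 4.02 and 4.20 CPM in KO. It was higher in KO at day 2 (1.05 ± 0.25, adjusted p = 0.0037). Wnt9a was measured at 7.14 and 6.45 CPM in fl/fl ES cells, 8.29 and 7.60 in KO ES cells, 3.91 and 3.23 at day 2 in fl/fl and 6.17 and 5.28 at day 2 in KO, and it was higher in KO at day 2 (0.68 ± 0.19, adjusted p = 0.00901), a call that was lost without fl/fl EBd2 lot 12 or KO EBd2 lot 1 (adjusted p = 0.0632 to 0.1).

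Wnt2b, Wnt8b and Wnt10b stayed below 2 CPM in every library. Wnt2b was measured at 0.539 and 0.635 CPM in fl/fl ES cells, 0.936 and 0.742 in KO ES cells, 0.135 and 0.577 at day 2 in fl/fl and 1.86 and 1.61 at day 2 in KO, and its day 2 difference was 2.20 ± 0.58 (adjusted p = 0.00646). The call was lost without fl/fl EBd2 lot 1 (adjusted p = 0.0501). Wnt8b had 1 and 1 counts in the fl/fl EBd2 libraries and 16 and 15 in KO EBd2, again a ratio of 11.7 (exact 95% counting interval 2.96 to 100). Its levels were 0.0449 and 0 CPM in fl/fl and 0.178 and 0.185 CPM in KO ES cells. In EBd2 Wnt8b had 0.135 and 0.115 CPM in fl/fl and 1.57 and 1.34 CPM in KO. Wnt10b had 1 and 1 counts in the fl/fl EBd2 libraries and 6 and 18 in KO EBd2, a ratio of 9.02 (interval 2.24 to 78.7). Its levels were 0.225 and 0.684 CPM in fl/fl and 0.357 and 0.881 CPM in KO ES cells. In EBd2 Wnt10b had 0.135 and 0.115 CPM in fl/fl and 0.588 and 1.61 CPM in KO. The Wnt10b call (adjusted p = 0.0255) was lost without fl/fl EBd2 lot 1, fl/fl EBd2 lot 12 or KO EBd2 lot 2 (adjusted p = 0.0881 to 0.191). The KO and fl/fl libraries of day 2 did not overlap in any of these genes. These intervals cover counting error only. Wnt3a, which drives paraxial mesoderm, was the tested ligand without a call at day 2. Its values there were 0 and 0.692 CPM in fl/fl and 1.18 and 0.626 in KO (log2 difference 1.24 ± 0.75, adjusted p = 0.171), and the groups overlapped. Without fl/fl EBd2 lot 12 the remaining fl/fl library had 0 counts and the call was made (adjusted p = 0.00732). Of the ligands left untested, Wnt9b reached 1.27 CPM in 1 KO EBd2 library, and Wnt1, Wnt2 and Wnt16 did not exceed 0.602 CPM in any.

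**Figure D3:**
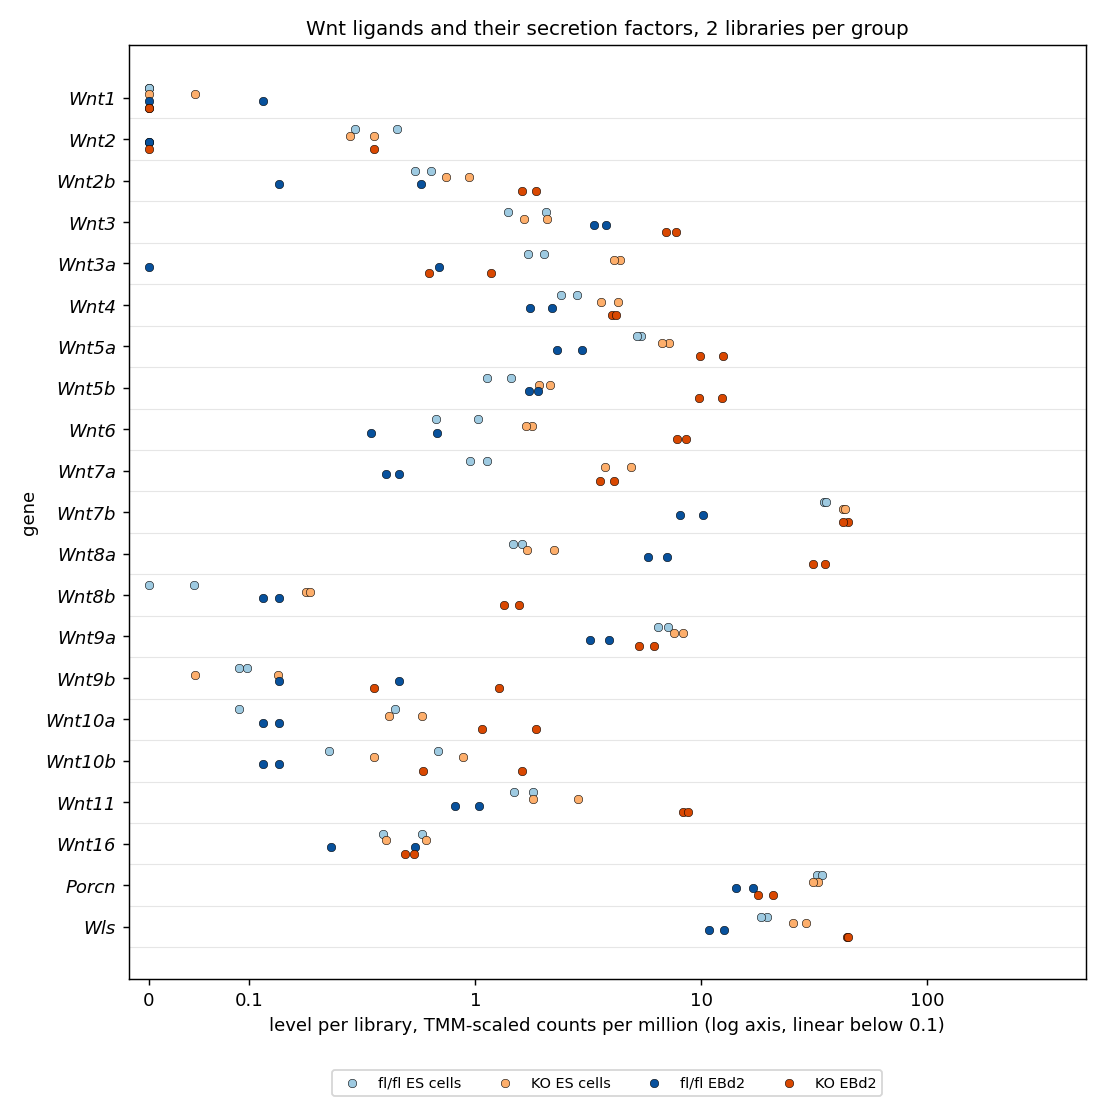
Level of each Wnt ligand and of the secretion factors Porcn and Wls (y axis) in each of the 8 libraries, in TMM-scaled CPM on an axis that is logarithmic above 0.1 and linear below (x axis). In KO EBd2 Wnt7b and Wnt8a lie between 31.3 and 44.6 CPM, above their fl/fl EBd2 points.

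Both secretion factors were higher in KO EBd2. Wls, the carrier that takes Wnt proteins to the surface, stood at 19.5 and 18.4 CPM in fl/fl and 28.9 and 25.5 CPM in KO ES cells. In EBd2 Wls had 12.5 and 10.8 CPM in fl/fl and 44.1 and 44.5 CPM in KO. It fell with stage in fl/fl (log2 difference -0.70 ± 0.11, adjusted p = 0.000215) and rose in KO (0.70 ± 0.08, adjusted p = 1.13e-05), and KO was above fl/fl by 1.93 ± 0.11 (adjusted p = 3.42e-08) at day 2. Porcn, the acyltransferase that attaches the lipid, was measured at 32.5 and 34.1 CPM in fl/fl and 32.6 and 31.1 CPM in KO ES cells. In EBd2 Porcn had 16.9 and 14.2 CPM in fl/fl and 17.8 and 20.8 CPM in KO. Its day 2 difference of 0.33 ± 0.12 (adjusted p = 0.03) was lost without fl/fl EBd2 lot 12 or KO EBd2 lot 2 (adjusted p = 0.222 to 0.254). Porcn fell with stage in both genotypes (-1.11 ± 0.10, adjusted p = 2.71e-06 in fl/fl and -0.72 ± 0.09, adjusted p = 3.05e-05 in KO).

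Because many ligands and Dickkopf antagonists were higher in KO EBd2, start regions of all members with an entry were read from a set of RefSeq starts (GRCm38.p6). The set is partial and covers 11878 of the 16542 genes tested. Of the 54 members 35 had an entry, giving 38 windows of the 250 bases before an annotated start. Each was read 5′ to 3′ on the gene's strand. For 35 of the 38 windows, bases beyond the start were found in a GENCODE transcript of the gene. For those of Fzd7, Wls and Fzd1 they were not. Wnt7b, Wnt8a, Wnt5a, Dkk4, Lrp5, Lrp6 and Sfrp1 were among those without an entry. Windows covered 17 of the 26 members called higher at day 2 and 6 of the 13 called lower. The letters CTTTGAT, a form of the core that TCF/LEF factors bind, were searched on both strands, where the reverse strand reads ATCAAAG. They occurred in 2 of the 38 member windows (5.26%), against 3.21% of all 32851 windows and 2.37% of the 15095 windows of tested genes. The 2 windows belong to 1 of 2 starts of Wnt11, where the match lies 51 bases before the start, and to 1 of 3 starts of Wnt5b, where it lies 71 bases before it. They are shown because both genes rose with stage in KO, with the match in capitals. A match is a description of letters and not a bound site, and other forms of the core were not searched.
Wnt11, chr7:98834862-98835111, plus strand: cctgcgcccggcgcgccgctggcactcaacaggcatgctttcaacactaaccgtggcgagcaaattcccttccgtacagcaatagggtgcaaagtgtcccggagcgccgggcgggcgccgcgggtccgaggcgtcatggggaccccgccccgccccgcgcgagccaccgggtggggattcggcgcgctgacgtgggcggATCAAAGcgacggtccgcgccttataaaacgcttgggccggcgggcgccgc
Wnt5b, chr6:119449387-119449636, minus strand: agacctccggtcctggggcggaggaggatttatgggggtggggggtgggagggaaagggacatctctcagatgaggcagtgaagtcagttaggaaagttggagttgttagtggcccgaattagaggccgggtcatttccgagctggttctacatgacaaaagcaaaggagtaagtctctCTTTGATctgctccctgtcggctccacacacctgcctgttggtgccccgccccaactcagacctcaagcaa

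CpG dinucleotides were counted in the same windows, because the series concerns Polycomb-silenced genes, and Polycomb proteins in ES cells tend to occupy CpG-rich starts. The median was 21.5 CG per window over the 38 member windows, 6 over all windows (quartiles 2 and 16) and 14 over the windows of tested genes (quartiles 7 and 22). Members called higher in KO EBd2 had a median of 19 (range 4 to 48, 20 windows), those called lower 16.5 (8 to 32, 6 windows), and those not called 24.5 (12 to 42, 8 windows). The CG count of these windows thus overlapped between members that were higher and members that were lower, and no test was made. The windows of Wnt6 (28 CG) and Dkk1 (6 CG), which had large differences upward, and Lgr4 (10 CG), which went down, show this spread, with each CG in capitals.
Wnt6, chr1:74771642-74771891, plus strand: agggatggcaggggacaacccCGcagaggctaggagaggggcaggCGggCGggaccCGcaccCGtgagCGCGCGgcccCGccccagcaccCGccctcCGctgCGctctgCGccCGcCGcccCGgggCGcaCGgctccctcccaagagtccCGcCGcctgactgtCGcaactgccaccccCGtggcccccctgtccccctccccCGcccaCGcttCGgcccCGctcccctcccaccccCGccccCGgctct
Dkk1, chr19:30549497-30549746, minus strand: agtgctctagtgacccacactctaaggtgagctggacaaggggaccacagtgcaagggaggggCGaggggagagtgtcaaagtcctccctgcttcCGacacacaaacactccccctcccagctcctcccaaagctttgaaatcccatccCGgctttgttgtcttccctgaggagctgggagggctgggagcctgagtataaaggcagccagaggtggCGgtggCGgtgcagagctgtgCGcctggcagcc
Lgr4, chr2:109917397-109917646, plus strand: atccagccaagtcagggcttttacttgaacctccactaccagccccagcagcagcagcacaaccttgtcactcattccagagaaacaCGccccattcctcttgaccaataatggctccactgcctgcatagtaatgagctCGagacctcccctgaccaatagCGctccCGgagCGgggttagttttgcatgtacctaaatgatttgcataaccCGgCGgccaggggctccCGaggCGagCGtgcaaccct

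Fzd7 had the highest level per kilobase of the Frizzled receptors in each of the 4 groups, and in KO EBd2 it had 14.2 CPM per kb against 12 for Fzd10. Fzd7, which is known for a role in ES cell self-renewal, was found at 175 and 169.7 CPM in fl/fl and 128 and 129 CPM in KO ES cells. In EBd2 Fzd7 had 280.4 and 306 CPM in fl/fl and 62.8 and 65.8 CPM in KO. The 4 groups did not overlap. Fzd7 rose from ES cells to day 2 in fl/fl (log2 difference 0.77 ± 0.04, adjusted p = 4.54e-08) and fell in KO (-1.0 ± 0.05, adjusted p = 2.23e-08), and the day 2 difference between genotypes was -2.19 ± 0.05 (adjusted p = 9.24e-11). It was lower in KO ES cells too (-0.42 ± 0.04, adjusted p = 7.99e-05). Fzd10 went the other way, with 8.85 and 9.18 CPM in fl/fl and 11.9 and 11.9 CPM in KO ES cells. In EBd2 Fzd10 had 10.8 and 11.5 CPM in fl/fl and 40.3 and 38.0 CPM in KO. KO EBd2 stood above the other 3 groups, and its difference from fl/fl EBd2 was 1.8 ± 0.09 (adjusted p = 1.83e-08). Of the summed Frizzled level per kilobase, Fzd7 made up 70.8% in fl/fl EBd2 and 32.1% in KO EBd2, and Fzd10 3.76% and 27.3%.

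Fzd5, a receptor needed for the yolk sac, was the second highest Frizzled per kilobase in ES cells (13.1 CPM per kb in fl/fl) and stood at 91.9 and 89.2 CPM in fl/fl and 62.6 and 68.7 CPM in KO ES cells. In EBd2 Fzd5 had 47.8 and 51.2 CPM in fl/fl and 30.2 and 27.9 CPM in KO. It was lower in KO at both stages (-0.46 ± 0.05, adjusted p = 0.000137 and -0.77 ± 0.08, adjusted p = 6.58e-06 on the log2 scale) and fell with stage in both genotypes. Fzd2 and Fzd3, the latter a receptor of planar cell polarity, rose with stage in fl/fl, while in KO Fzd2 was not called (-0.03 ± 0.11, adjusted p = 0.794) and Fzd3 fell (-0.73 ± 0.11, adjusted p = 8.60e-05). The Fzd2 levels were 12 and 9.87 CPM in fl/fl and 13.7 and 15.0 CPM in KO ES cells. In EBd2 Fzd2 had 23.6 and 23.5 CPM in fl/fl and 14.1 and 13.9 CPM in KO. Those of Fzd3 were 15.9 and 15.2 CPM in fl/fl and 18.5 and 17.7 CPM in KO ES cells. In EBd2 Fzd3 had 21.1 and 24.9 CPM in fl/fl and 10.2 and 11.5 CPM in KO. The genotype difference at day 2 was -0.75 ± 0.12 (adjusted p = 0.000149) for Fzd2 and -1.08 ± 0.12 (adjusted p = 7.57e-06) for Fzd3. The interaction was called for both, at -1.14 ± 0.15 (adjusted p = 9.29e-05) and -1.30 ± 0.14 (adjusted p = 2.27e-05). Fzd8 was measured at 3.32 and 3.52 CPM in fl/fl ES cells, 3.48 and 4.40 in KO ES cells, 8.64 and 6.92 at day 2 in fl/fl and 4.90 and 2.50 at day 2 in KO and was lower in KO at day 2 (-1.08 ± 0.28, adjusted p = 0.00519). Fzd1 stood at 4.99 and 4.64 CPM in fl/fl ES cells, 5.26 and 6.63 in KO ES cells, 3.37 and 2.88 at day 2 in fl/fl and 8.43 and 7.33 at day 2 in KO and was higher in KO EBd2 (1.33 ± 0.21, adjusted p = 0.000158).

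The other 3 Frizzled receptors were not called between genotypes at day 2. Fzd6, which acts with Fzd3 in planar polarity, was measured at 7.14 and 6.25 CPM in fl/fl ES cells, 9.54 and 8.81 in KO ES cells, 14.8 and 15.2 at day 2 in fl/fl and 17.4 and 18.4 at day 2 in KO, with a day 2 difference of 0.25 ± 0.11 (adjusted p = 0.06). That gene passed the threshold in 2 settings, with library sizes alone and with a stricter filter on low counts. Fzd4, the receptor of Norrin, stood at 6.78 and 6.25 CPM in fl/fl ES cells, 5.80 and 7.09 in KO ES cells, 6.34 and 8.08 at day 2 in fl/fl and 7.84 and 5.90 at day 2 in KO, with overlapping groups (day 2 difference -0.09 ± 0.20, adjusted p = 0.729). Fzd9 was found at 6.69 and 6.35 CPM in fl/fl ES cells, 6.15 and 6.72 in KO ES cells, 4.72 and 2.65 at day 2 in fl/fl and 4.02 and 4.47 at day 2 in KO, also with overlap at day 2 (0.23 ± 0.25, adjusted p = 0.436). Fzd5 and Fzd6 have exons that overlap a gene on the opposite strand.

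The co-receptors Lrp5 and Lrp6 were slightly lower in KO EBd2. Lrp6 was found at 127 and 120.0 CPM in fl/fl ES cells, 115 and 121 in KO ES cells, 121 and 128 at day 2 in fl/fl and 89.0 and 93.2 at day 2 in KO, and KO EBd2 lay below the other groups (day 2 difference -0.45 ± 0.05, adjusted p = 2.03e-05). Lrp5 stood at 119 and 116 CPM in fl/fl and 113 and 116 CPM in KO ES cells. In EBd2 Lrp5 had 123 and 123 CPM in fl/fl and 112 and 101 CPM in KO. Its day 2 difference of -0.21 ± 0.05 (adjusted p = 0.0041) turned to 0.0125 and was not called with library sizes alone. Ror1, a receptor of Wnt5a, rose with stage in both genotypes. It stood at 0.764 and 0.879 CPM in fl/fl and 0.758 and 0.742 CPM in KO ES cells. In EBd2 Ror1 had 16.2 and 14.5 CPM in fl/fl and 6.27 and 6.62 CPM in KO. The stage difference was 4.21 ± 0.19 (adjusted p = 7.64e-09) in fl/fl and 3.09 ± 0.21 (adjusted p = 1.62e-07) in KO, with an interaction of -1.12 ± 0.31 (adjusted p = 0.0114) that was lost without KO ES lot 1 (adjusted p = 0.0507). The day 2 difference between genotypes was -1.25 ± 0.15 (adjusted p = 2.57e-05). Its relative Ror2 went the other way at day 2, with 31.3 and 28.8 CPM in fl/fl ES cells, 30.2 and 30.5 in KO ES cells, 22 and 24.3 at day 2 in fl/fl and 39.1 and 39.4 at day 2 in KO and a difference of 0.76 ± 0.08 (adjusted p = 9.44e-06). Ryk, a receptor whose kinase domain is inactive, was measured at 80.9 and 81.7 CPM in fl/fl and 81.3 and 81.8 CPM in KO ES cells. In EBd2 Ryk had 76.6 and 71.9 CPM in fl/fl and 75.4 and 72.0 CPM in KO. It did not differ by call between genotypes (0.00 ± 0.04, adjusted p = 0.959 in ES cells and -0.01 ± 0.05, adjusted p = 0.9 at day 2), except that with library sizes alone the day 2 difference was 0.22 and called.

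**Figure D4:**
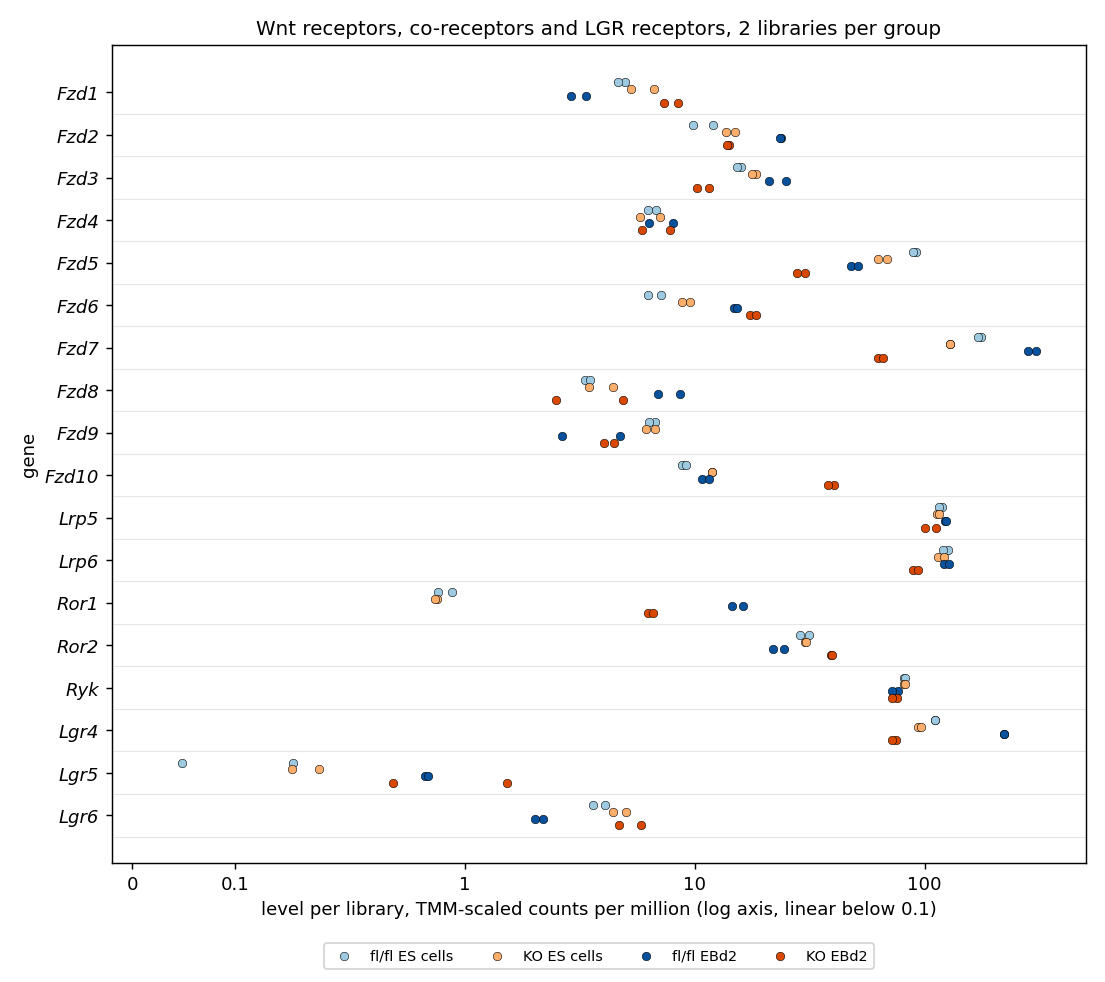
Level of the Frizzled, LRP, ROR, RYK and LGR receptors (y axis) in each of the 8 libraries, in TMM-scaled CPM on an axis that is logarithmic above 0.1 and linear below (x axis). Fzd7 and Lgr4 are highest in fl/fl EBd2 (280 to 306 and 221 CPM) and lowest in KO EBd2 (62.8 to 65.8 and 72.4 to 75.2 CPM), and Fzd10 is highest in KO EBd2.

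R-spondins and their LGR receptors, which raise the amount of Frizzled at the surface, changed gene by gene. Lgr4, the LGR gene with the highest level per kilobase (18.9 CPM per kb in fl/fl ES cells, against 0.562 for Lgr6), was found at 111 and 111 CPM in fl/fl and 93.1 and 96.2 CPM in KO ES cells. In EBd2 Lgr4 had 221 and 221 CPM in fl/fl and 75.2 and 72.4 CPM in KO. It rose with stage in fl/fl (log2 difference 0.99 ± 0.04, adjusted p = 1.70e-09) and fell in KO (-0.36 ± 0.04, adjusted p = 1.25e-05), and KO was lower in ES cells (-0.23 ± 0.03, adjusted p = 0.000898) and at day 2 (-1.58 ± 0.04, adjusted p = 1.69e-10). Lgr6 stood at 4.09 and 3.62 CPM in fl/fl ES cells, 4.41 and 5.05 in KO ES cells, 2.02 and 2.19 at day 2 in fl/fl and 4.70 and 5.81 at day 2 in KO and was higher in KO EBd2 (1.32 ± 0.23, adjusted p = 0.000446). Lgr5, known as a marker of intestinal stem cells, stayed between 0.0489 and 1.52 CPM, with a day 2 difference of 0.57 ± 0.68 (adjusted p = 0.493). Among the ligands of these receptors, Rspo1 was measured at 2.61 and 3.18 CPM in fl/fl and 4.73 and 4.17 CPM in KO ES cells. In EBd2 Rspo1 had 13.6 and 13 CPM in fl/fl and 6.17 and 5.72 CPM in KO. It was lower in KO at day 2 (-1.16 ± 0.15, adjusted p = 3.92e-05), and the interaction was -1.79 ± 0.22 (adjusted p = 4.13e-05).

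Rspo2 was nearly lost at day 2 in both genotypes. ES cell libraries held 103 and 94 counts in fl/fl and 102 and 93 in KO. In EBd2 the fl/fl libraries held 0 and 1 counts and the KO libraries 3 and 1. The fl/fl CPM ratio between stages was 74.1-fold in favour of ES cells, with an exact 95% counting interval of 13.1 to 2940. In KO the stage difference was -4.51 ± 0.39 (adjusted p = 1.42e-06). Rspo3 stood at 1.08 and 0.977 CPM in fl/fl ES cells, 1.61 and 1.71 in KO ES cells, 0.675 and 0.808 at day 2 in fl/fl and 1.27 and 1.88 at day 2 in KO, and its day 2 call (1.08 ± 0.42, adjusted p = 0.0443) was lost without fl/fl ES lot 1, fl/fl ES lot 2, KO ES lot 1, KO ES lot 12, fl/fl EBd2 lot 1, fl/fl EBd2 lot 12 or KO EBd2 lot 2 (adjusted p = 0.0593 to 0.261). Rspo4 was measured at 1.03 and 1.03 CPM in fl/fl and 1.96 and 1.85 CPM in KO ES cells. In EBd2 Rspo4 had 1.48 and 1.15 CPM in fl/fl and 0.882 and 0.537 CPM in KO. Its genotype difference was not called at either stage (0.89 ± 0.30, adjusted p = 0.0561 in ES cells, -0.89 ± 0.44, adjusted p = 0.0968 at day 2), while the interaction was (-1.78 ± 0.53, adjusted p = 0.0169). The latter was lost without KO ES lot 1, fl/fl EBd2 lot 1 or KO EBd2 lot 2 (adjusted p = 0.0535 to 0.0674).

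Dkk1, Dkk2 and Dkk3 were called higher in KO EBd2, and so was Dkk4, which was tested only because of its level there. Dkk1, which blocks Lrp5 and Lrp6 and is itself a target of canonical signalling, was found at 0.629 and 0.830 CPM in fl/fl and 0.669 and 0.927 CPM in KO ES cells. In EBd2 Dkk1 had 3.24 and 2.54 CPM in fl/fl and 64.0 and 57.8 CPM in KO. Both ES cell groups lay below 1 CPM and overlapped. Dkk1 rose with stage in fl/fl (1.97 ± 0.29, adjusted p = 0.000115) and far more in KO (6.24 ± 0.14, adjusted p = 4.93e-11), so that KO stood above fl/fl by 4.41 ± 0.14 (adjusted p = 7.83e-10) at day 2 on the log2 scale, with an interaction of 4.27 ± 0.39 (adjusted p = 4.50e-06). Dkk4, another target of the canonical branch, had 0 and 0 counts in the fl/fl EBd2 libraries and 35 and 55 in KO EBd2, so it was at least 22.6-fold higher in KO against a floor of 3 counts over the fl/fl group. The 4 ES cell libraries held 0 or 1 count of it each, and its KO EBd2 levels were 3.43 and 4.92 CPM. Dkk2 was measured at 3.10 and 2.15 CPM in fl/fl ES cells, 3.70 and 3.01 in KO ES cells, 0.540 and 0.346 at day 2 in fl/fl and 1.76 and 1.16 at day 2 in KO and was lower at day 2 than in ES cells in both genotypes. Its day 2 difference of 1.72 ± 0.52 (adjusted p = 0.0135) was lost without fl/fl EBd2 lot 12 or KO EBd2 lot 1 (adjusted p = 0.0774 to 0.0999). The KO stage call was lost without KO EBd2 lot 2 (adjusted p = 0.0553). Dkk3, a divergent family member, stood at 16.7 and 16.6 CPM in fl/fl and 18.2 and 22 CPM in KO ES cells. In EBd2 Dkk3 had 5.80 and 5.42 CPM in fl/fl and 9.70 and 10.4 CPM in KO. It too fell with stage in both, and was higher in KO at day 2 (0.84 ± 0.17, adjusted p = 0.00105).

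Kremen1, a Dickkopf receptor that helps to remove Lrp6 from the surface, was measured at 47.2 and 46.0 CPM in fl/fl and 52.2 and 54.1 CPM in KO ES cells. In EBd2 Kremen1 had 34.5 and 34.3 CPM in fl/fl and 48.3 and 46.8 CPM in KO. It was higher in KO at day 2 (0.47 ± 0.06, adjusted p = 5.53e-05). Kremen2 lay between 1.04 and 4.28 CPM and overlapped between genotypes at day 2 (0.63 ± 0.39, adjusted p = 0.188), where it was called only without fl/fl EBd2 lot 1 (adjusted p = 0.011) among the libraries left out.

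The Sfrp genes, whose products bind and sequester Wnt proteins, went down at day 2 in KO where they were called. Sfrp1, the highest of them per kilobase in ES cells (15.0 CPM per kb in fl/fl), was found at 66.5 and 65.1 CPM in fl/fl and 75 and 74.8 CPM in KO ES cells. In EBd2 Sfrp1 had 54.8 and 58.8 CPM in fl/fl and 25.9 and 20.3 CPM in KO. Both KO EBd2 libraries lay below the other 6. The difference at day 2 was -1.31 ± 0.09 (adjusted p = 2.46e-07). Sfrp2 was measured at 9.30 and 9.04 CPM in fl/fl ES cells, 9.90 and 9.69 in KO ES cells, 25 and 26.5 at day 2 in fl/fl and 5.98 and 6.17 at day 2 in KO, rose with stage in fl/fl (1.49 ± 0.09, adjusted p = 8.18e-08), fell in KO (-0.69 ± 0.11, adjusted p = 0.000191) and differed between genotypes at day 2 by -2.08 ± 0.11 (adjusted p = 2.02e-08). Sfrp4 stood at 2.83 and 2.30 CPM in fl/fl ES cells, 1.92 and 1.85 in KO ES cells, 3.24 and 2.54 at day 2 in fl/fl and 0.980 and 0.805 at day 2 in KO, with a day 2 difference of -1.68 ± 0.33 (adjusted p = 0.00102). Sfrp5, a gene of anterior visceral endoderm, had 1.75 and 2.08 CPM in fl/fl EBd2 and 2.16 and 1.70 in KO EBd2, with overlap (0.00 ± 0.36, adjusted p = 1). Wif1 did not exceed 0.784 CPM in any library (1.16 ± 0.77, adjusted p = 0.215 at day 2). Exons of Sfrp2, Kremen2 and Rspo3 each overlap a gene on the opposite strand.

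**Figure D5:**
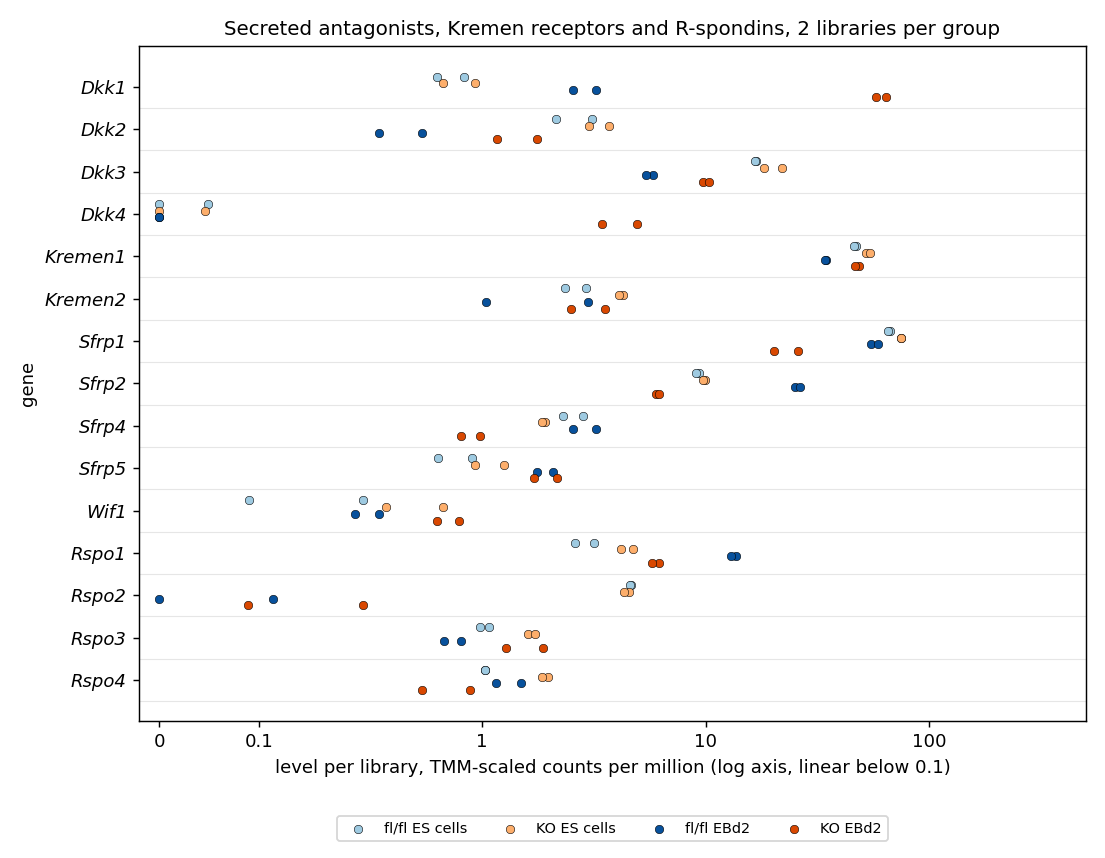
Level of the Dickkopf, Kremen, Sfrp, Wif1 and R-spondin genes (y axis) in each of the 8 libraries, in TMM-scaled CPM on an axis that is logarithmic above 0.1 and linear below (x axis). Dkk1 reaches 57.8 to 64.0 CPM in KO EBd2 against 2.54 to 3.24 in fl/fl EBd2, and Sfrp1 and Sfrp2 are lowest in KO EBd2.

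In ES cells fewer of these genes were called between genotypes than at day 2, as was so for all genes tested. The called ligands were Wnt3a, Wnt4, Wnt6, Wnt7a and Wnt7b, which were higher in KO, as were Wls, Fzd2, Fzd6, Fzd10, Kremen1, Rspo1 and Sfrp1, while Fzd5, Fzd7 and Lgr4 were lower. Wnt3a stood at 2.02 and 1.71 CPM in fl/fl and 4.37 and 4.12 in KO ES cells, a difference of 1.18 ± 0.32 (adjusted p = 0.0206). Wnt6 was higher by 1.02 ± 0.28 (adjusted p = 0.0235), Wnt4 by 0.59 ± 0.18 (adjusted p = 0.0405) and Wnt7b by 0.28 ± 0.06 (adjusted p = 0.0068). Wls was higher by 0.52 ± 0.08 (adjusted p = 0.000972) and Fzd10 by 0.40 ± 0.08 (adjusted p = 0.00583). Rspo1 differed by 0.63 ± 0.15 (adjusted p = 0.0131), Kremen1 by 0.19 ± 0.05 (adjusted p = 0.0123) and Sfrp1 by 0.19 ± 0.06 (adjusted p = 0.0396). The calls of Fzd5, Fzd7, Lgr4, Wls and Wnt7a were made whichever of the 8 libraries was left out. The other 10 calls were lost on leaving out at least 1 library. Among the ligands this held for Wnt3a without fl/fl ES lot 1, fl/fl ES lot 2, KO ES lot 1 or KO ES lot 12 (adjusted p = 0.0837 to 0.127), Wnt4 without fl/fl ES lot 1, fl/fl ES lot 2, KO ES lot 1, KO ES lot 12, KO EBd2 lot 1 or KO EBd2 lot 2 (adjusted p = 0.0516 to 0.219), Wnt6 without fl/fl ES lot 1, KO ES lot 1 or KO ES lot 12 (adjusted p = 0.0714 to 0.169) and Wnt7b without fl/fl ES lot 1 or KO ES lot 12 (adjusted p = 0.0603 to 0.0646). Among the receptors it held for Fzd10 without fl/fl ES lot 1 (adjusted p = 0.052), Fzd2 without fl/fl ES lot 2 or KO ES lot 12 (adjusted p = 0.121 to 0.142) and Fzd6 without fl/fl ES lot 2 or KO ES lot 1 (adjusted p = 0.0671 to 0.0833). For the rest it held for Kremen1 without fl/fl ES lot 1, fl/fl ES lot 2 or KO ES lot 12 (adjusted p = 0.0553 to 0.0964), Rspo1 without fl/fl ES lot 1 or KO ES lot 1 (adjusted p = 0.087 to 0.115) and Sfrp1 without fl/fl ES lot 1, fl/fl ES lot 2, KO ES lot 1 or KO ES lot 12 (adjusted p = 0.127 to 0.181). The count of called members without a library was 7 at the least (fl/fl ES lot 1), 8 without KO ES lot 12 and 9 without fl/fl ES lot 2, compared with 15.

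From ES cells to day 2 more ligands were called lower than higher in fl/fl, and more higher than lower in KO. In fl/fl, 33 of the 50 tested members were called, 15 higher and 18 lower at day 2, where 59% of all genes were called, 28.9% higher and 30.1% lower. Of the ligands, Wnt3 and Wnt8a rose and Wnt3a, Wnt5a, Wnt7a, Wnt7b and Wnt9a fell. Among the Frizzled receptors Fzd2, Fzd3, Fzd6, Fzd7, Fzd8 and Fzd10 rose. In KO, 36 of 50 were called, 18 in each direction, where 64.8% of all genes were called, 31.7% higher and 33.1% lower. Of the 18 higher, Dkk4, Wnt10a and Wnt8b were tested only because of their level in KO EBd2, and without the 4 such members 15 of 46 were higher and 18 lower. Here Wnt10a, Wnt11, Wnt3, Wnt5a, Wnt5b, Wnt6, Wnt8a and Wnt8b rose and Wnt3a and Wnt9a fell. The members' median stage difference was -0.29 in fl/fl and 0.04 in KO, against -0.02 and 0.00 for all genes. Of the fl/fl calls 25 were made whichever library was left out. Those lost were Wnt7a without fl/fl ES lot 2, fl/fl EBd2 lot 1 or fl/fl EBd2 lot 12 (adjusted p = 0.0995 to 0.144), and among the receptors Fzd1 without fl/fl ES lot 1 or fl/fl EBd2 lot 12 (adjusted p = 0.0741 to 0.149), Fzd10 without fl/fl ES lot 1, fl/fl EBd2 lot 1 or fl/fl EBd2 lot 12 (adjusted p = 0.0651 to 0.251), Fzd9 without fl/fl EBd2 lot 12 (adjusted p = 0.103), Lgr5 without fl/fl ES lot 2, fl/fl EBd2 lot 1 or fl/fl EBd2 lot 12 (adjusted p = 0.0867 to 0.143) and Ryk without fl/fl ES lot 1, fl/fl ES lot 2 or fl/fl EBd2 lot 12 (adjusted p = 0.0673 to 0.233). Also lost were Sfrp1 without fl/fl ES lot 1, fl/fl ES lot 2 or fl/fl EBd2 lot 1 (adjusted p = 0.055 to 0.163) and Sfrp5 without fl/fl ES lot 2 or fl/fl EBd2 lot 12 (adjusted p = 0.0712 to 0.0836). In KO 25 calls were made in every such fit. The ligand calls lost there were Wnt10a without KO ES lot 1, KO ES lot 12, fl/fl EBd2 lot 1, fl/fl EBd2 lot 12 or KO EBd2 lot 1 (adjusted p = 0.051 to 0.275) and Wnt9a without KO ES lot 1 or KO EBd2 lot 2 (adjusted p = 0.0567 to 0.104). The receptor calls lost were Fzd1 without fl/fl ES lot 1, fl/fl ES lot 2, KO ES lot 1 or KO EBd2 lot 1 (adjusted p = 0.0529 to 0.238), Fzd9 without KO ES lot 12 or KO EBd2 lot 1 (adjusted p = 0.0677 to 0.0897), Lgr5 without KO ES lot 1, KO ES lot 12 or KO EBd2 lot 2 (adjusted p = 0.0599 to 0.315) and Ryk without KO EBd2 lot 2 (adjusted p = 0.107). The rest were Dkk2 without KO EBd2 lot 2 (adjusted p = 0.0553), Kremen1 without KO ES lot 12 or KO EBd2 lot 2 (adjusted p = 0.0801 to 0.104), Rspo1 without KO ES lot 12, KO EBd2 lot 1 or KO EBd2 lot 2 (adjusted p = 0.0699 to 0.155), Rspo4 without KO EBd2 lot 2 (adjusted p = 0.057) and Sfrp4 without KO EBd2 lot 2 (adjusted p = 0.0748). Stage coincides with depth in these libraries. The part of depth in the stage differences was not tested beyond a fit on counts thinned to the smallest total. In that fit 26 and 29 members were called, and of the 15029 genes tested 8541 in fl/fl and 9309 in KO. The summed feeder genes also fell with stage, from 1152 to 1206 CPM to 108 to 109 in fl/fl. In KO their sum fell from 1357 to 1465 CPM to 407 to 433. The part of the feeder genes in the stage differences of the members was not tested.

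Of 64 other genes of the pathway, from cytoplasmic components to targets and further secreted modulators, 60 were tested. At day 2 19 were higher and 26 lower in KO (median log2 difference -0.11), where 30.7% and 31.5% of all genes were. In ES cells 9 were higher and 9 lower (median 0.06), where 10.9% and 12.8% of all genes were. Axin2, a scaffold of the destruction complex and a widely used target of canonical signalling, stood at 15.9 and 14.6 CPM in fl/fl and 16.7 and 17.4 in KO ES cells. In EBd2 Axin2 had 12.3 and 13.8 CPM in fl/fl and 78.6 and 77.8 in KO. It was higher in KO at day 2 by 2.58 ± 0.09 (adjusted p = 8.69e-10), with an ES cell difference of 0.16 ± 0.08 (adjusted p = 0.161). Sp5, another direct target, had 1 and 1 counts in the fl/fl EBd2 libraries and 623 and 664 in KO EBd2. Tcf7l1, a TCF factor that represses targets in ES cells, differed at day 2 by -1.09 ± 0.05 (adjusted p = 1.48e-08). For Ctnnb1, which encodes beta-catenin, the day 2 difference was -0.30 ± 0.03 (adjusted p = 7.03e-06), and with library sizes alone -0.07 without a call. Btrc and Fbxw11, the genes of the beta-TrCP F-box proteins, differed at day 2 by -0.31 ± 0.06 (adjusted p = 0.00143) and -0.11 ± 0.05 (adjusted p = 0.0661), the first lost with library sizes alone and the second gained without KO EBd2 lot 1 (adjusted p = 0.0258).

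Rnf43 and Znrf3, the membrane ubiquitin ligases that remove Frizzled receptors and that R-spondins inhibit, had day 2 differences of 1.62 ± 0.23 (adjusted p = 8.02e-05) and 0.75 ± 0.08 (adjusted p = 6.87e-06). Notum, an enzyme that removes the lipid from Wnt proteins, stood at 4.18 and 3.46 CPM in fl/fl EBd2 and 15.5 and 17.5 CPM in KO EBd2 (day 2 difference 2.12 ± 0.17, adjusted p = 6.76e-07). Frzb, a further Sfrp-type antagonist outside the symbol pattern, had 0 and 1 counts in fl/fl EBd2 and 21 and 25 in KO EBd2. Lef1 and Tcf7, further TCF/LEF factors, differed at day 2 by 0.49 ± 0.16 (adjusted p = 0.0213) and -0.53 ± 0.04 (adjusted p = 7.88e-07), and the Lef1 call was lost without fl/fl EBd2 lot 1 or KO EBd2 lot 2 (adjusted p = 0.16 to 0.172). Tnks2, a tankyrase that promotes the turnover of axin, differed at day 2 by -0.80 ± 0.03 (adjusted p = 3.71e-09), and the heparan sulphate proteoglycan gene Gpc3 had a stage difference in KO of 0.88 ± 0.04 (adjusted p = 1.38e-08). In ES cells the calls with the smallest p in the list were Csnk1a1 (-0.29 ± 0.03, adjusted p = 9.20e-05), Celsr3 (0.63 ± 0.08, adjusted p = 0.000286), Tnks (-0.27 ± 0.04, adjusted p = 0.000587) and Gpc4 (0.43 ± 0.06, adjusted p = 0.000674). Between stages in fl/fl they were Prickle1 (2.64 ± 0.10, adjusted p = 2.19e-09), Csnk1a1 (-0.74 ± 0.03, adjusted p = 4.93e-09), Tcf7l1 (1.12 ± 0.05, adjusted p = 7.06e-09) and Csnk1g2 (0.67 ± 0.04, adjusted p = 1.09e-07). Cer1 had at most 3 counts in any library and was not tested.

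The markers of other cell types that moved at day 2 moved in the same libraries as the members: 12 of 14 tested feeder genes, 10 of 11 endoderm genes, 4 of 6 streak genes and 7 of 8 trophectoderm genes were higher in KO EBd2, where 30.7% of all genes were, and 4 of 4 formative epiblast genes lower, where 31.5% were. The endoderm gene Apoa1 and the trophectoderm gene Tfap2c were called lower. Eomes is in both the streak and the trophectoderm list. Other lists were mixed, with 4 of 8 naive ES cell genes higher and 2 lower. Of 3 general pluripotency genes 1 was higher and 2 lower. Of 4 tested neuroectoderm genes 1 was higher and 2 lower, and of 2 tested anterior visceral endoderm genes 1 was higher and 1 lower. Summed levels of the trophectoderm genes were 284 to 292 CPM in fl/fl EBd2 and 749 to 764 in KO EBd2. Their part in the differences of the Wnt genes was not tested.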

How the data were processed

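Poly(A) RNA of 8 mouse libraries was analysed from the table of raw counts per gene that the authors deposited. The submitters' processing notes name Trim Galore 0.6.7 and the build GRCm38 (mm10). For the aligner, counting tool, annotation and strand setting, nothing is given in the sources used here. Members were matched by gene symbol, and the members and lists were chosen with earlier results of these data known. Genes below 0.633 CPM in all but 1 library were left out (filterByExpr), leaving 16542. Counts were scaled by TMM and fitted with edgeR 4.0.16 (glmQLFit, glmQLFTest; R 4.3.3, limma 3.58.1) as 4 group means over all 8 libraries, with 4 residual degrees of freedom and a common biological coefficient of variation of 3.4%. Tests were two-sided, with p-values adjusted by Benjamini-Hochberg over all genes and a threshold of 0.05. The standard error is the log2 difference divided by the square root of F. The fit was tested on simulated data. DESeq2 1.42.0 served as an alternative. Replicate libraries differed beyond sampling noise in every group, with a chi-square per gene of 2.12 to 2.81. Values in every library are given for members with at least 5 CPM in a group, or called at day 2 or in the interaction with at least a 2-fold change and 1 CPM. Gene positions, exon lengths and overlaps came from GENCODE M21, and 8 members share exon sequence with a gene on the opposite strand (Fzd5, Fzd6, Kremen2, Rspo3, Sfrp2, Wnt11, Wnt5a and Wnt7b). Start regions came from RefSeq on GRCm38.p6.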

Additional observations from a re-analysis of the deposited data

Results flagged for a closer look

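For 30 members the difference between genotypes was not the same at the 2 stages, by the interaction of genotype and stage in the same edgeR fit (KO minus fl/fl at day 2, less KO minus fl/fl in ES cells, in log2 units ± standard error). Over all genes tested 48% were called in this interaction, 22.4% with a positive and 25.7% with a negative value. The interaction was positive for 17 members and negative for 13.

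The genes with a positive interaction, whose KO level gained on fl/fl at day 2, were of the ligands and secretion factors Wnt7b (1.98 ± 0.12, adjusted p = 2.59e-07), Wls (1.41 ± 0.14, adjusted p = 7.5e-06), Wnt8a (2.02 ± 0.27, adjusted p = 8e-05), Wnt5a (1.69 ± 0.25, adjusted p = 0.000183), Wnt11 (2.68 ± 0.43, adjusted p = 0.000328), Wnt6 (3.0 ± 0.50, adjusted p = 0.000427), Wnt5b (1.96 ± 0.35, adjusted p = 0.000709), Porcn (0.39 ± 0.14, adjusted p = 0.0389) and Wnt3 (0.92 ± 0.34, adjusted p = 0.0448). Among the receptors these were Fzd10 (1.40 ± 0.13, adjusted p = 4.53e-06), Ror2 (0.74 ± 0.10, adjusted p = 0.000139), Fzd1 (1.03 ± 0.26, adjusted p = 0.00624) and Lgr6 (1.02 ± 0.29, adjusted p = 0.012). Of the antagonists and their receptors these were Dkk1 (4.27 ± 0.39, adjusted p = 4.5e-06), Kremen1 (0.28 ± 0.08, adjusted p = 0.0126) and Dkk3 (0.57 ± 0.19, adjusted p = 0.0295). The fitted value for Dkk4 was 9.06, but 3 of its 4 groups held at most 1 count in all, so it is no fold. Leaving out 1 library ended these positive calls for Lgr6 without KO EBd2 lot 2 (adjusted p = 0.0524), Porcn without fl/fl ES lot 1, fl/fl ES lot 2, KO ES lot 1, KO ES lot 12, fl/fl EBd2 lot 12 or KO EBd2 lot 2 (adjusted p = 0.0524 to 0.219) and Wnt3 without fl/fl ES lot 2, KO ES lot 1, fl/fl EBd2 lot 1, fl/fl EBd2 lot 12, KO EBd2 lot 1 or KO EBd2 lot 2 (adjusted p = 0.0673 to 0.197). It also ended them for Kremen1 without fl/fl EBd2 lot 12 or KO EBd2 lot 1 (adjusted p = 0.0504 to 0.0527), Dkk3 without fl/fl ES lot 1, fl/fl ES lot 2, KO ES lot 1, fl/fl EBd2 lot 1, fl/fl EBd2 lot 12 or KO EBd2 lot 2 (adjusted p = 0.0534 to 0.133) and Dkk4 without fl/fl ES lot 2, KO ES lot 1, fl/fl EBd2 lot 1, fl/fl EBd2 lot 12, KO EBd2 lot 1 or KO EBd2 lot 2 (adjusted p = 0.0588 to 1).

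A negative interaction was found among the receptors for Fzd7 (-1.77 ± 0.07, adjusted p = 1.07e-08), Fzd3 (-1.30 ± 0.14, adjusted p = 2.27e-05), Fzd2 (-1.14 ± 0.15, adjusted p = 9.29e-05), Lrp6 (-0.38 ± 0.07, adjusted p = 0.000773), Ror1 (-1.12 ± 0.31, adjusted p = 0.0114), Fzd8 (-1.28 ± 0.36, adjusted p = 0.0129) and Fzd5 (-0.31 ± 0.10, adjusted p = 0.0196). The others with a negative value were Lgr4 (-1.35 ± 0.05, adjusted p = 1.43e-08), Sfrp2 (-2.18 ± 0.14, adjusted p = 4.02e-07), Sfrp1 (-1.5 ± 0.11, adjusted p = 9.57e-07), Rspo1 (-1.79 ± 0.22, adjusted p = 4.13e-05), Rspo4 (-1.78 ± 0.53, adjusted p = 0.0169) and Sfrp4 (-1.24 ± 0.41, adjusted p = 0.0279). Rspo1 was higher in KO in ES cells and lower at day 2, and Fzd2 and Sfrp1 did so as well. Leaving out 1 library ended the negative calls for Ror1 without KO ES lot 1 (adjusted p = 0.0507), Fzd8 without fl/fl EBd2 lot 1 (adjusted p = 0.0508), Rspo4 without KO ES lot 1, fl/fl EBd2 lot 1 or KO EBd2 lot 2 (adjusted p = 0.0535 to 0.0674), Fzd5 without fl/fl ES lot 2, KO ES lot 12, fl/fl EBd2 lot 12 or KO EBd2 lot 2 (adjusted p = 0.0519 to 0.104) and Sfrp4 without fl/fl ES lot 2, KO ES lot 1, KO ES lot 12, fl/fl EBd2 lot 1 or KO EBd2 lot 2 (adjusted p = 0.0552 to 0.0969).

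With 2 libraries a group, single libraries that stand apart could not be tested for.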

How the results depend on the processing

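The counts of called members were recomputed with RLE scaling, library sizes alone, no filter, a stricter filter, DESeq2, thinned counts, fits of 1 stage or genotype, a lot block, and each library left out. In ES cells the count of 15 fell to 9 in DESeq2, where fewer members had an adjusted p (40 against 50), to 6 with the lot block, and ranged from 7 to 16 with a library left out. At day 2 it was 39, and 35 to 38 with a library left out; the fl/fl stage count was 33 (26 to 33), the KO stage count 36 (29 to 37) and the interaction count 30 (22 to 29). In these 4 comparisons every setting gave a count within 1.5 times the reported one. The ES cell calls of Kremen1, Rspo1, Sfrp1, Wnt3a, Wnt4 and Wnt6 were lost in DESeq2, and at day 2 Rspo3 lost its call in DESeq2, the lot block, thinned counts, no filter and the fit of that stage, and Porcn and Wnt10b in the lot block. For the ES cell count under the lot block, which lost Fzd10, Fzd2, Fzd6, Kremen1, Sfrp1, Wnt3a, Wnt4, Wnt6 and Wnt7b (adjusted p = 0.0523 to 0.345), the cause was not tested. Over all genes in ES cells, 2236 of 16542 were called with the lot block and 2810 of 13380 in DESeq2, compared with 3926 of 16542 in the main fit.

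In all, 6 values called with TMM scaling or with library sizes alone turned sign between these fits. Sign changes of values called in neither fit were not counted. Of these 6, the day 2 differences were those of Lrp5 (0.0125), Ryk (0.22), Csnk1a1 (0.11) and Tnks (0.12). The rest were the KO stage difference of Ryk (0.00161) and the interaction of Ctnnb1 (0.0348). Library sizes alone moved the median of all genes by 0.07 in ES cells and 0.23 at day 2. The shift was 0.14 for the KO stage difference and 0.15 for the interaction.

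The lot numbers do not pair the libraries, since any 2 groups compared share only lot 1 and the labels do not say what a lot is. Across genes, the deviations of lot 1 from the other lot correlated between groups at -0.02 to 0.02. In a fit with the lot as a replicate block, 36 members were called at day 2, 28 and 30 between stages in fl/fl and KO, and 22 in the interaction. Of all 16542 genes, that fit called 8955 at day 2, 8351 and 9168 between stages in fl/fl and KO, and 5619 in the interaction. Where an arm was left with 1 library, that library was taken to vary like the other groups. With counts thinned to 7858452 per library, 10 members were called in ES cells and 36 at day 2. Of the 15029 genes tested in the thinned fit, 2080 were called in ES cells and 9592 at day 2.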
